A study of Rattus norvegicus with 8 samples.

Results

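The 7 genes described here serve B cells and the plasma cells that arise from them, and they were taken by symbol from 4351 genes listed in either of the study's tables for rat dorsal root ganglia. They are the immunoglobulin M heavy chain gene Igh-6, Jchain, Mzb1, Pou2af1, Cd79a, Cd79b and the chemokine gene Cxcl13. They were selected on their measured differences between groups in these same libraries, so their values in the contrasts of the tables are a description and not a test. All 8 samples were ganglia of wild-type Sprague Dawley rats of 250 g. In WT, 3 samples came from rats left untreated. In IMQ, 3 samples came from rats given imiquimod, a Toll-like receptor 7 agonist used to provoke psoriasis-like inflammation, over the skin of the back on 6 days. In lidocaine, 2 samples came from rats with that imiquimod course together with epidural injections of 1% lidocaine, a sodium channel blocker, for 4 days from day 3. Tissue was collected on day 7. No group had a vehicle cream or an epidural injection without lidocaine, so the drug and the procedure cannot be told apart. The spinal level of the ganglia, pooling of animals, age and sex are not given in sources used here.

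B cells carry a membrane antibody as antigen receptor, and the Cd79a and Cd79b proteins pass its signal into the cell. After activation some become plasma cells, which build secretory machinery and release antibody, with pentamers of immunoglobulin M held together by the joining chain. Cxcl13 is made mainly by stromal and myeloid cells and draws B cells through the receptor Cxcr5, so it is a gene of B cell attraction and not of the B cell itself. Healthy sensory ganglia consist chiefly of neurons, satellite glia and Schwann cells with some resident immune cells.

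The table for IMQ against WT lists 6 of the 7 genes and the table for lidocaine against IMQ also lists 6, with 5 genes in both. Cxcl13 stands only in the first and Cd79b only in the second. Each table lists only genes whose group means differed by at least 1.00, so the level of a gene in a table that does not list it was not analysed here. Levels are the deposited log2(normalized count + 1) values, on which 1 unit is close to a doubling, and reads are whole counts recovered from them. WT libraries had a relative depth of 1.09 to 1.34, IMQ libraries 0.808 to 0.912 and lidocaine libraries 0.789 to 0.873, against a mean of 1 over all libraries. The sensory neuron genes Nefm, Prph and Sncg, the listed 3 of 19 neuron and glia markers, were abundant, with group means of 16.81 to 18.67 in WT and 15.72 to 17.62 in IMQ. The median chi-square between libraries was highest within WT, at 28.5 to 129 against 2.33 to 6.61 within IMQ and 7.99 within lidocaine. The lidocaine value rests on 339 genes listed for lidocaine against IMQ, the others on 2743 to 2913 genes listed for IMQ against WT. This statistic also rises with read counts, and the WT libraries were the deepest. In bulk tissue, fewer cells of a type and less RNA per cell cannot be told apart.

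Upstream sequence was on hand for 3 of the 7 genes, and it is shown for the 2 of them that were far higher in IMQ than in WT, Jchain and Cxcl13, beside Cd79a, whose mean was lower. Each stretch is the 150 bases before the annotated start from RefSeq (build GRCr8), written 5′ to 3′ on the strand of the gene. Capitals mark TATAAA, the TATA box, or GGAAGT, a core that ETS family factors can bind. Jchain has neither.

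Jchain, chr14:19822826-19822975, plus strand: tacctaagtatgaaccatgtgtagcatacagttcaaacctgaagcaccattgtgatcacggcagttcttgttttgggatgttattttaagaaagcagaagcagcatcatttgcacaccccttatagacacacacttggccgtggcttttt

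Cd79a, chr1:89621310-89621459, plus strand: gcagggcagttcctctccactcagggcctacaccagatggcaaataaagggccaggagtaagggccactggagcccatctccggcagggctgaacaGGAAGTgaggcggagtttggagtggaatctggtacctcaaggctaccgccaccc

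Cxcl13, chr14:13917921-13918070, minus strand: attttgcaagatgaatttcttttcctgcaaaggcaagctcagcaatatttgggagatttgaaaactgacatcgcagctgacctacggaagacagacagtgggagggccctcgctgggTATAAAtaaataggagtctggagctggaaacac

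In Cxcl13 the TATAAA letters lie 33 to 28 bases before the start, and in Cd79a the GGAAGT letters lie 54 to 49 bases before it. Both motifs were chosen after the sequences had been seen. Over 250 upstream bases and both strands, TATAAA occurred in 12.9% and GGAAGT in 19.2% of 33469 rat promoters. The octamer ATGCAAAT, a letter sequence bound by the POU factors that Pou2af1 assists, was in none of the 3 promoters and in 1.56% of all. GAGGAAGT, a PU.1 motif that contains GGAAGT, was in 0 of 3 and in 2.04% of all, and TGACGTGG, an XBP1 motif, in 0 of 3 and in 0.52%. A missing match says only that these letters are not in this window.

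The antibody chain itself showed the widest range of the set. Igh-6 (ENSRNOG00000048402), the constant region of the immunoglobulin M heavy chain, stood at 3.48, 3.30 and 3.55 in WT replicates 1, 2 and 3, which is 12 to 14 reads per library. In the IMQ libraries it stood at 11.91, 12.80 and 12.53, or 3186 to 6362 reads. In the lidocaine libraries it stood at 5.65 and 4.74, or 23 to 40 reads. The 3 groups did not overlap at any point, with lidocaine between WT and IMQ but far nearer to WT. The mean was 3.44 ± 0.13 (SD, n = 3) in WT, 12.41 ± 0.46 (n = 3) in IMQ and 5.19 ± 0.65 (n = 2) in lidocaine. IMQ exceeded WT by 8.97 (SE 0.32), a 501-fold difference and the rank 2 value of 4136 listed genes, or by 8.10 with a pseudocount of 10. Lidocaine lay below IMQ by 149-fold (−7.22, SE 0.38), which was the lowest of 775 listed differences.

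The other listed immunoglobulin genes were Ighg and the surrogate light chain gene Igll1, which is described with the precursor genes. Ighg (ENSRNOG00000030332), a gamma heavy chain constant region, was at 0 in every WT library, at 3.71, 3.14 and 4.33 in the IMQ libraries, and at 0 in both lidocaine libraries. With a floor of 3 reads per library, it was at least 5.53-fold higher in IMQ than in WT and at least 3.70-fold lower in lidocaine than in IMQ. Heavy chain constant regions resemble one another, and how shared reads were counted is not stated, so the split between Igh-6 and Ighg is uncertain.

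Jchain (ENSRNOG00000003666), the joining chain of secreted immunoglobulin M and A, stood at 5.67, 5.16 and 4.75 in WT. It reached 9.96, 9.83 and 9.88 in IMQ, and was at 6.53 and 5.06 in lidocaine. The IMQ libraries lay close together and above all others, while the lidocaine libraries fell on both sides of the highest WT value. In reads this was 29 to 69 in WT, 810 to 881 in IMQ and 29 to 74 in lidocaine. The IMQ mean (9.89 ± 0.07) was 25.9-fold above WT (5.19 ± 0.46), a difference of 4.69 (SE 0.32). The lidocaine mean (5.79 ± 1.04) was 17.1-fold below IMQ (−4.09, SE 0.42), a difference of −3.36 without lidocaine replicate 2 and −4.83 without lidocaine replicate 1.

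Mzb1 (ENSRNOG00000022009), an endoplasmic reticulum protein that helps antibody assembly and secretion in mouse B cells, stood at 3.57, 4.75 and 4.43 in WT. In IMQ it was at 8.60, 8.49 and 8.59, and in lidocaine at 2.84 and 2.12. Lidocaine was below every WT library here, at 3 to 5 reads against 15 to 35 in WT and 320 to 361 in IMQ. The IMQ mean (8.56 ± 0.06) was 19.9-fold above WT (4.25 ± 0.61), a difference of 4.31 (SE 0.39). The lidocaine mean (2.48 ± 0.51) was 67.7-fold below IMQ (−6.08, SE 0.34), rank 4 from the lowest of 775 differences. At so few reads the pseudocount matters, and with 10 in place of 1 the difference was −4.72.

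Pou2af1 (ENSRNOG00000011500), a coactivator that joins the octamer-binding factors Oct-1 and Oct-2 in B cells, was already present in WT at 5.91, 6.88 and 6.80. It was at 7.83, 7.65 and 7.89 in IMQ and at 3.74 and 4.47 in lidocaine. The order of the groups was therefore lidocaine, WT, IMQ with no overlap, and the step from WT to IMQ was the smaller one. That step was 1.26 (SE 0.36, 2.39-fold), from 6.53 ± 0.54 to 7.79 ± 0.13. Lidocaine (4.10 ± 0.52) stood 12.9-fold below IMQ (−3.69, SE 0.33).

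The antigen receptor subunit Cd79a differed in direction from the antibody genes between WT and IMQ. Cd79a (ENSRNOG00000020125) stood at 6.51, 7.81 and 7.90 in WT, at 6.61, 6.04 and 5.92 in IMQ, and at 4.68 and 5.11 in lidocaine. It was the single member with a lower mean in IMQ than in WT, and there the groups overlapped, since IMQ replicate 1 lay above WT replicate 1. The IMQ mean (6.19 ± 0.36) differed from WT (7.41 ± 0.77) by −1.22 (SE 0.46), in reads 56 to 80 against 125 to 302. Lidocaine (4.89 ± 0.30, 20 to 30 reads) lay below every IMQ library, by 2.46-fold on average (−1.30, SE 0.37).

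The partner subunit Cd79b (ENSRNOG00000011917) has values in IMQ, at 6.55, 6.43 and 6.11, and in lidocaine, at 4.28 and 3.31. All IMQ values lay above both lidocaine values, with 64 to 77 reads against 8 to 15. The means were 6.36 ± 0.23 and 3.80 ± 0.69, a difference of −2.57 (SE 0.42, 5.93-fold), or −1.98 with a pseudocount of 10.

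Cxcl13 (ENSRNOG00000024899), the chemokine that guides B cells into follicles, has values in WT, at 5.75, 5.07 and 4.75, and in IMQ, at 12.84, 11.78 and 12.23. The 2 groups were far apart, at 29 to 73 reads against 3131 to 6098. The means of 5.19 ± 0.51 and 12.28 ± 0.53 gave a 137-fold difference (7.09, SE 0.39), rank 10 of 4136.

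**Figure D1:**
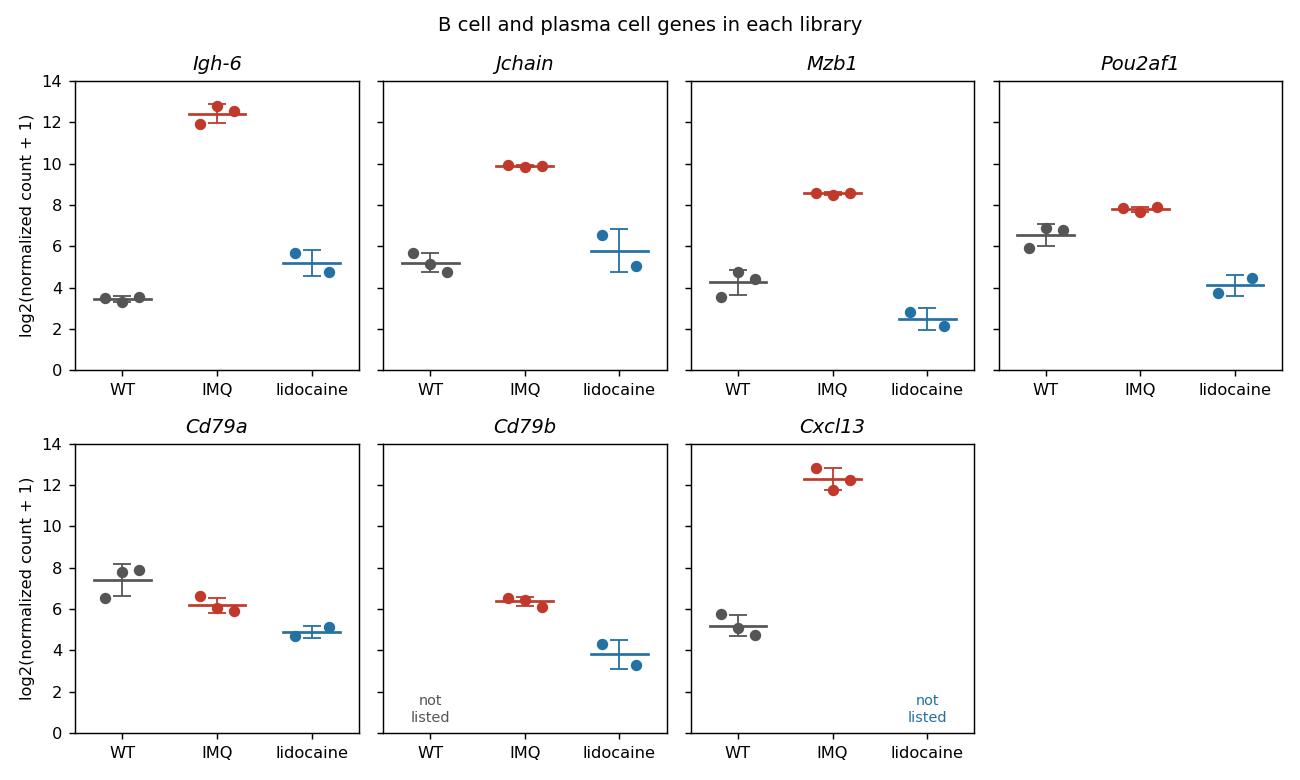
Level of each of the 7 genes in every library, as log2(normalized count + 1). Each point is 1 library, the wide bar is the group mean and the narrow bars are 1 SD (n = 3 WT, 3 IMQ, 2 lidocaine). Igh-6 and Cxcl13 lie at 11.78 or above in every IMQ library, while Cd79a has its highest values in WT.

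By limma's test (adjusted p under 0.05 over the whole table), all 6 listed members passed for IMQ against WT, 5 as higher and 1 as lower. Of all 4136 listed genes 95.9% passed, 58.9% as higher and 37% as lower, and nothing is read from the members' count. For lidocaine against IMQ, 6 of 6 listed members passed as lower, where 94.6% of the 775 genes passed and 87.1% passed as lower. The median difference of the listed members was 4.50 for IMQ against WT and −3.89 for lidocaine against IMQ, beside 1.25 and −1.44 over all listed genes. The medians over all listed genes mix higher and lower genes. Groups did not overlap in 5 of 6 listed members for IMQ against WT and in 6 of 6 for lidocaine against IMQ. Over all listed genes the shares were 92.8% and 98.1%, so nothing is read from the lack of overlap either. Both comparisons share the IMQ libraries. The call of Cd79a for IMQ against WT (adjusted p = 0.0351) ended when WT replicate 2, WT replicate 3 or any 1 IMQ library was left out, with adjusted p of 0.0519 to 0.115. That of Pou2af1 ended without IMQ replicate 3 (adjusted p = 0.0585). That of Cd79a for lidocaine against IMQ ended without lidocaine replicate 1 (−1.08, adjusted p = 0.102).

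**Figure D2:**
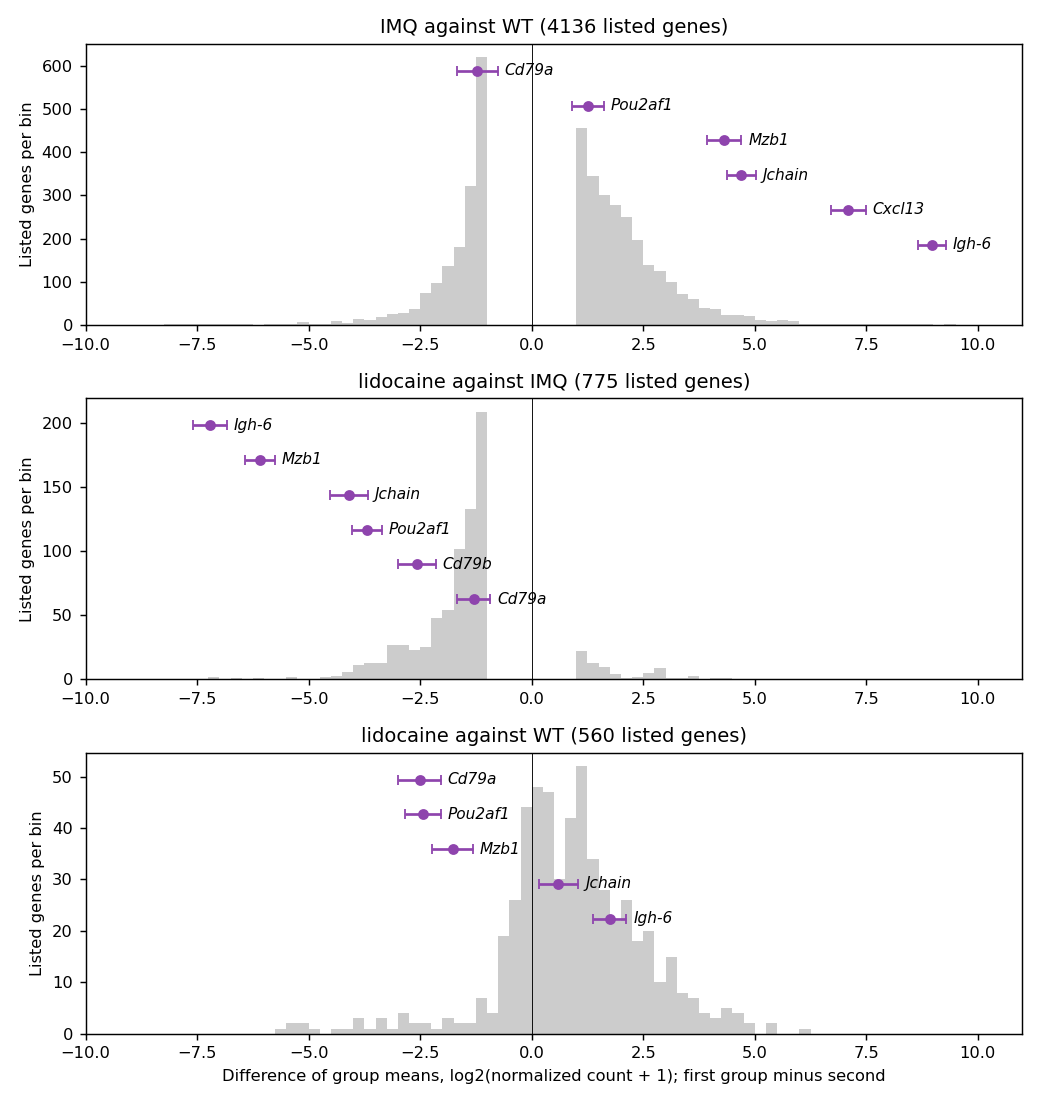
Differences of group means on the log2(normalized count + 1) scale. Grey bars count all listed genes per bin and purple points give the members with their standard errors, placed at arbitrary heights. The empty middle of the upper panels is the selection at a difference of 1.00, and the lowest panel has no such gap because neither table was selected on lidocaine against WT.

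Lidocaine libraries can be set against WT for the 560 genes in both tables, in 1 limma fit over all 8 libraries. This difference is the sum of the contrasts that chose the members, and the 560 genes had to differ in both tables, so its p-values describe these selected genes and are not independent support. Of the 5 members in both tables, 3 stood below WT and 1 above it past the threshold. Of all 560 genes 42.5% passed, 37.5% as higher and 5% as lower, and the median difference was 0.87 over all genes and −1.77 over the 5 members. In 59.5% of the 560 genes the groups did not overlap, as in 4 of the 5 members.

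The genes below WT were Cd79a, Pou2af1 and Mzb1. Cd79a was 5.71-fold lower in lidocaine than in WT (−2.51, 95% interval −3.58 to −1.45, limma adjusted p = 0.00215). Pou2af1 was 5.39-fold lower (−2.43, −3.33 to −1.53, limma adjusted p = 0.00109) and Mzb1 3.41-fold lower (−1.77, −2.79 to −0.74, limma adjusted p = 0.0114). Each of the 3 was lower in both lidocaine libraries than in any WT library, as were 6.79% of all 560 genes, while 52.7% lay wholly above WT. They held ranks 22, 23 and 28 from the lowest of 560. With a pseudocount of 10 the Mzb1 difference shrank to −0.95 (adjusted p = 0.0335). Mzb1 missed the threshold without lidocaine replicate 2 (−1.41, adjusted p = 0.0878) and in a fit of WT and lidocaine alone (adjusted p = 0.0755).

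The antibody genes Igh-6 and Jchain did not follow these 3. Igh-6 was 3.37-fold higher in lidocaine than in WT (1.75, 95% interval 0.91 to 2.59, limma adjusted p = 0.00422). Jchain differed by 0.60, with an interval of −0.40 to 1.60 and overlapping groups (limma adjusted p = 0.323). The Jchain value turned on single libraries, at 1.33 without lidocaine replicate 2 (adjusted p = 0.0422) and −0.13 without lidocaine replicate 1.

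The members therefore did not keep fixed proportions to one another. A difference of 2 genes' levels within 1 library cancels depth, and its change between groups cancels transcript length, so only the change is described. Igh-6 minus Jchain was −2.19, −1.86 and −1.20 in WT, 1.95, 2.97 and 2.65 in IMQ, and −0.87 and −0.32 in lidocaine. The antibody heavy chain was thus higher relative to the joining chain in each IMQ library than in any library of the other groups. Mzb1 minus Cd79a was −2.95, −3.06 and −3.47 in WT, 1.99, 2.45 and 2.67 in IMQ, and −1.84 and −2.99 in lidocaine. Here lidocaine overlapped WT, and IMQ stood apart by over 3 units from either.

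Other pairs moved less or in another way. Mzb1 minus Jchain was −2.10, −0.41 and −0.32 in WT and −1.36, −1.34 and −1.28 in IMQ, so these groups overlapped, and it was −3.69 and −2.94 in lidocaine, below all other libraries. Pou2af1 minus Cd79a was −0.60, −0.93 and −1.09 in WT, 1.22, 1.60 and 1.97 in IMQ, and −0.95 and −0.64 in lidocaine. For this pair lidocaine lay within the range of WT. Cd79a minus Cd79b was 0.05, −0.38 and −0.19 in IMQ and 0.40 and 1.80 in lidocaine. The lidocaine values rest on 20 and 30 reads of Cd79a and on 15 and 8 reads of Cd79b. That of lidocaine replicate 1 lay near the highest IMQ value, and only that of lidocaine replicate 2 stood well above it.

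**Figure D3:**
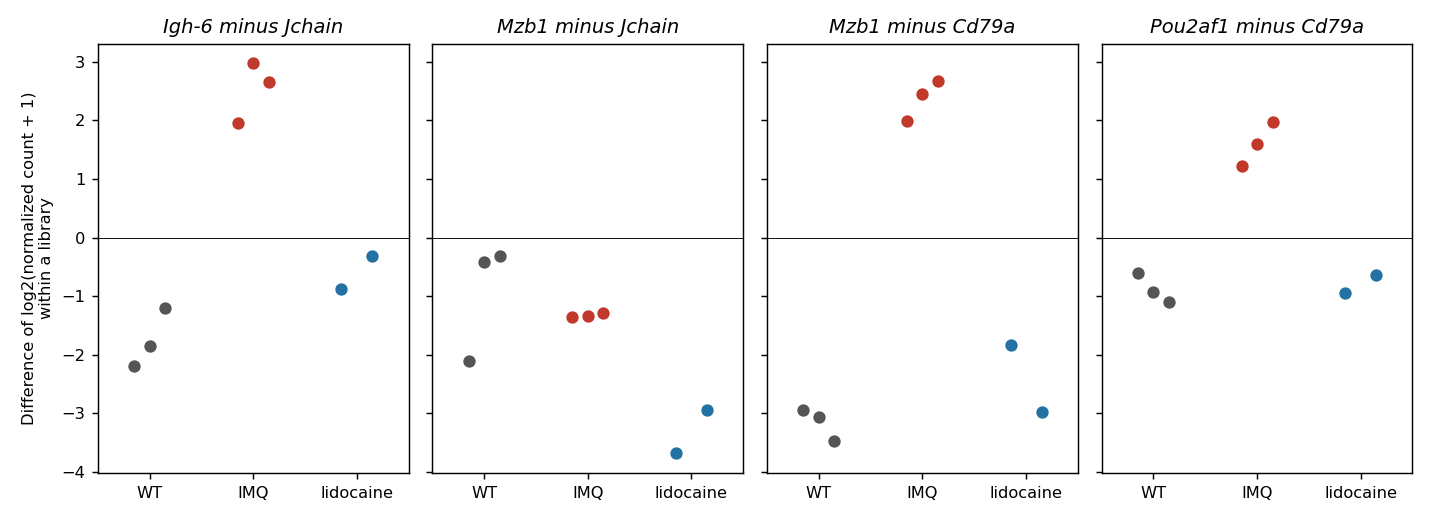
Differences of log2(normalized count + 1) between 2 members within each library, for 4 pairs. Each point is 1 library, and the height of a single point depends on transcript length, so only shifts between groups are to be read. IMQ stands apart from WT and lidocaine in 3 of the 4 panels, and in Mzb1 minus Jchain lidocaine is lowest.

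Genes of early B cell development were lower in IMQ. Of 7 precursor genes, 5 were listed for IMQ against WT and all 5 passed as lower, beside 37% of all listed genes, with a median of −3.41 (−2.18 with the gene at 0 in IMQ set at its bound). Igll1 and Vpreb2, parts of the surrogate light chain, fell by 4.39 (SE 0.87, limma adjusted p = 0.00475) and 3.41 (SE 0.96, limma adjusted p = 0.0149). Igll1 was at 4.90, 5.53 and 5.88 in WT and at 0, 3.14 and 0 in IMQ. Rag1, an enzyme subunit of antigen receptor gene rearrangement, fell by 2.18 (SE 0.44, limma adjusted p = 0.00495). Its partner Rag2 was at 2.60, 4.39 and 4.30 in WT and at 0 in every IMQ library, at least 4.30-fold lower. Dntt, which adds bases at the joints of rearranged genes, fell by 1.76 (SE 0.51, limma adjusted p = 0.0158). Rag1, Rag2 and Dntt also act in T cell precursors. The count was 3 of 5 without WT replicate 2 and also without IMQ replicate 1.

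These precursor genes and 3 of the members were lowest among WT libraries in replicate 1. That held for each of the 5 precursor genes, whose summed normalized counts were 98.3, 232.9 and 208.8 in WT replicates 1 to 3 and 19.3 to 31.4 in IMQ. It held also for Cd79a, Pou2af1 and Mzb1, but not for Igh-6, Jchain or Cxcl13. Erythroid genes, which mark blood and marrow, had their lowest WT sum in the same library, at 142300, 311800 and 408600 in WT and 19700 to 79840 in IMQ. From 16 erythroid symbols 8 entries were listed, with Hba-a2 under more than 1 gene identifier. All 8 were lower in IMQ (median −2.39), beside 38.9% of all listed genes. Neutrophil genes were likewise lowest in WT replicate 1, at 1004 against 2282 and 2304. Other lists, of B lineage and of other cells, also had their lowest WT sums there. They were the neuron markers (528500 against 801400 and 1025000), the plasma cell and secretory genes (2266 against 3490 and 4395), the receptor signalling genes (1519 against 1727 and 1899) and the macrophage genes (13240 against 15610 and 15900). So were the other B lineage genes (176.5 against 219.6 and 226.7) and the genes that bind or carry antibody (715.9 against 771.1 and 910.2). The sum of T and cytotoxic genes was instead highest in WT replicate 1, at 659.5 against 359.3 and 350.7. So were those of the chemokine and survival genes (1438 against 1082 and 1167) and the proliferation genes (279.1 against 227.7 and 212.4). The part of blood or marrow content in the values of the precursor genes and Cd79a was not tested.

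Some genes of mature B cells rose in IMQ. Of 18 other B lineage genes, 4 were listed for IMQ against WT and all 4 passed as higher, beside 58.9% of all listed genes. The median of the 4 was 2.75. Over all listed genes it was 1.25, a value that mixes 61.1% higher and 38.9% lower genes. They were Cd22, an inhibitory coreceptor (3.03, SE 0.45), Pou2f2, which encodes the Oct-2 partner of Pou2af1 (2.83, SE 0.31), the transcription factor Ikzf3 (2.66, SE 0.47) and the tetraspanin Cd37 (2.30, SE 0.35), with limma adjusted p of 0.00307 or below. Of 17 genes of receptor signalling, 10 were listed and all 10 passed as higher, beside 58.9% of all listed genes, with a median of 2.13. The largest were the exchange factor Vav1 (3.36), the adaptor Pik3ap1 (2.82), the kinase Lyn (2.45) and the phosphatase Ptpn6 (2.23). Many of these signalling genes also act in myeloid or T cells.

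Plasma cell genes were mixed in IMQ. Of 24 symbols of the plasma cell and secretory list, 6 were listed, 5 passed as higher and 1 as lower, with a median of 1.82. Of all listed genes 58.9% passed as higher and 37% as lower. Cd38, an ectoenzyme of plasma cells and of several other leukocytes, rose by 4.14 (SE 0.46) and the surface receptor Slamf7 by 2.86 (SE 0.43). Prdm1, the repressor that drives plasma cell fate, rose by 1.84 (SE 0.33), the surface proteoglycan Sdc1 by 1.80 (SE 0.33) and the transcription factor Irf4 by 1.29 (SE 0.30), with limma adjusted p of 0.00852 or below for these 5. The signal peptidase subunit Sec11c fell by 1.08 (SE 0.32, limma adjusted p = 0.0169), a call that ended without WT replicate 2 or without IMQ replicate 3. Of 13 proliferation genes only Rrm2 and Mcm5 were listed, both higher (1.43 and 1.08).

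**Figure D4:**
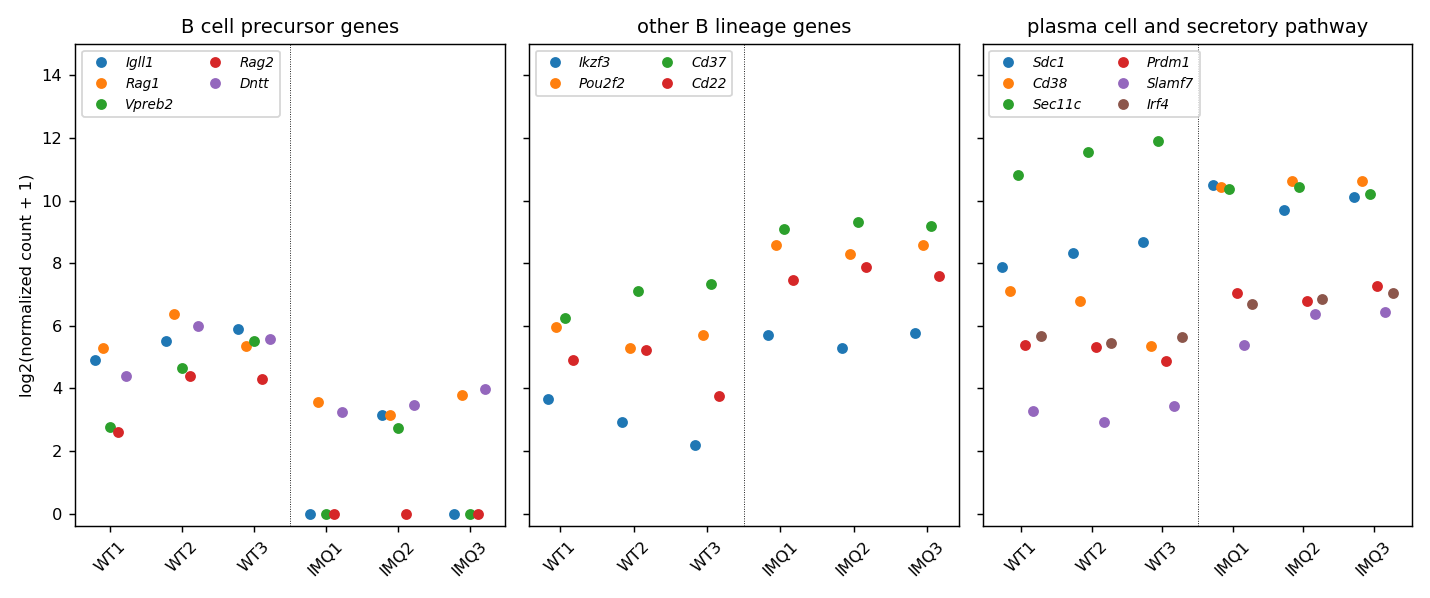
Levels of the listed genes of 3 B lineage groups in each WT and IMQ library, as log2(normalized count + 1), with points of 1 library set side by side. All 5 precursor genes are lower in IMQ, where Rag2 is at 0 in every library, while the 4 other B lineage genes are higher.

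Some signals that attract or sustain B cells rose in IMQ. Of 23 genes of chemokines, survival factors and germinal centres, 10 were listed for IMQ against WT and all 10 passed as higher, beside 58.9% of all listed genes, with a median of 3.03 (1.96 with genes at 0 in WT set at their bounds). Il6, a cytokine that aids plasma cell survival, rose by 4.72 (SE 0.65) and Ccr6, a receptor on B cells and some T cells, by 3.37 (SE 0.68). The survival factor Tnfsf13b, also called BAFF, rose by 3.08 (SE 0.49) and the receptor Il21r by 3.05 (SE 0.32), with limma adjusted p of 0.005 or below for these 4. Il10 and Cd40lg were at 0 in every WT library and at least 4.92-fold and 3.02-fold higher in IMQ. Of 10 genes that bind or carry antibody, 4 were listed and all rose, namely Fcgr2b (4.81), Fcgr3a (4.78), Fcer1g (3.16) and Fcgr1a (2.63). These are Fc receptor genes that are not particular to B cells.

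Markers of other leukocytes moved in the same direction, where 58.9% of all listed genes passed as higher and 37% as lower. All 13 listed T and cytotoxic cell genes of 16 passed as higher (median 3.10), with summed normalized counts of 350.7 to 659.5 in WT and 3705 to 3915 in IMQ. All 12 listed macrophage genes of 13 passed as higher (median 2.92, 13240 to 15900 against 125800 to 154900), as did all 6 listed neutrophil genes of 11 (median 2.45, 1004 to 2304 against 6127 to 9686). No listed marker of these lists was at 0 throughout a group. The 3 listed neuron markers passed as lower in IMQ, Nefm by −1.04, Prph by −1.09 and Sncg by −1.46, with sums of 528500 to 1025000 in WT and 330200 to 340600 in IMQ. The part of general leukocyte content and of neuron content in the B lineage values was not tested.

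Mature B cell genes were lower with lidocaine than with imiquimod alone. Of the 18 other B lineage genes, 6 were listed and all 6 passed as lower, beside 87.1% of all listed genes, with a median of −2.17 beside −1.44. Ms4a1, which encodes CD20, was at 6.24, 5.33 and 5.67 in IMQ and at 2.84 and 4.23 in lidocaine (−2.21, SE 0.54, limma adjusted p = 0.011). Ikzf3 and the kinase Blk fell by 2.23 and 2.12, the transcription factor Spib by 1.51 and Cd22 by 1.17. For Ms4a1 both lidocaine libraries lay below every IMQ library, as in 89.2% of all 775 listed genes.

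Other B lineage lists had few listed genes, and the share of all 775 listed genes that passed as lower, 87.1%, stands beside each count. Of 24 plasma cell symbols, 4 were listed and all passed as lower (median −1.79), namely Slamf7 (−2.30), Irf4 (−2.02), Cd38 (−1.57) and the antibody-secreting cell gene Fam46c (−1.11). Without lidocaine replicate 1 the count was 2 of 4. Of 17 receptor signalling genes, 4 were listed and all passed as lower (median −1.20), the lowest being the adaptor Dapp1 (−1.31). Of 23 chemokine and survival genes, 6 were listed and all passed as lower (median −1.71, or −1.47 with Cd40lg at its bound), among them the homing receptors Ccr7 (−2.01) and Ccr6 (−1.87). Cd40lg was at 0 in both lidocaine libraries, at least 2.02-fold lower. None of the 7 precursor genes was listed.

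Here too other leukocyte markers moved along, where 87.1% of all 775 listed genes passed as lower. Of 16 T and cytotoxic genes, 9 were listed and passed as lower (median −1.64, summed counts of 1211 to 1363 in IMQ and 430.2 to 491.6 in lidocaine). Of 13 macrophage genes, 7 passed as lower (median −1.28, 109400 to 138100 against 44420 to 51310), and of 11 neutrophil genes, 7 (median −1.61, 4433 to 9161 against 1944 to 2080). Erythroid genes were lower again, with 10 entries listed from 16 symbols and Hba-a2 counted more than once (median −2.52, 17160 to 67040 against 3747 to 11230). No listed marker of these 4 lists was at 0 in both lidocaine libraries, and their part in the B lineage values was not tested.

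Of other B lineage genes in both tables, some passed as higher in lidocaine than in WT. Of all 560 genes 37.5% passed as higher and 5% as lower, and 76.4% had a higher and 23.6% a lower mean. Cd22 was higher by 1.85 (SE 0.45, limma adjusted p = 0.00831), a call that ended without lidocaine replicate 2, whereas Ikzf3 differed by 0.44 (limma adjusted p = 0.567). Cd38 was higher by 2.58 (SE 0.45, limma adjusted p = 0.00152), while Slamf7 differed by 0.56 (limma adjusted p = 0.401) and Irf4 by −0.73 (limma adjusted p = 0.111). Of the 5 chemokine and survival genes in both tables, Tnfsf13b (1.80) and Il21r (1.67) passed as higher, and 1 of them without lidocaine replicate 2, a share near that of all genes. Other leukocyte markers were in part higher than in WT as well, and their part was not tested. Macrophage genes were higher in 7 of 7 with 5 past the threshold (summed counts of 10660 to 13500 in WT and 44420 to 51310 in lidocaine). T and cytotoxic genes had 4 of 9 higher and 1 lower past it (89.5 to 135.6 against 430.2 to 491.6), and the Fc receptor genes Fcgr2b and Fcgr3a both passed as higher (107.8 to 140.1 against 1295 to 1603). Neutrophil genes passed as higher in 2 of 5, with sums that overlapped (941.6 to 2248 against 1708 to 1861). All 5 erythroid entries in both tables, with Hba-a2 counted more than once, were lower in lidocaine than in WT, beside the lower Cd79a, Pou2af1 and Mzb1. The erythroid median was −4.18, with summed counts of 108700 to 324400 in WT and 3615 to 10970 in lidocaine.

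The genes most like each member in pattern were found by Pearson's r over the libraries, among named genes whose normalized count averaged 10 or more. Because the libraries fall into groups, r mostly reflects the group means and is a description of these libraries. Over 8 libraries and 483 genes, Igh-6 was most like Cyp4f18 (r = 0.9915), Jchain (0.9836) and Gpr171 (0.9832), and Jchain was most like Igh-6, Cyp4f18 (0.9822) and Cd247 (0.9776). Mzb1 was most like Cd40 (0.9879), Irf4 (0.974) and Ctse (0.9678). Pou2af1 was most like Cd177 (0.9512), Timd2 (0.9228) and LOC24906 (0.9174). Cd79a paired with genes that were also highest in WT, Pi16 (0.9604), Krt19 (0.9579) and Adh1 (0.9549). Over the 6 libraries and 3432 genes of its table, Cxcl13 was most like Tnfrsf1b (0.9999), Tlr2 (0.9998) and Cp (0.9996). No likeness is given for Cd79b, which has values in 5 libraries.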

How the data were processed

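Per the labels' protocols, total RNA was extracted from frozen ganglia with TRIzol and sequenced from Illumina libraries. Per the submitters' processing notes, bcl2fastq, STAR 2.5.3a and DESeq2 were used, with no role stated. The genome build, annotation, counter and strand setting are not given in sources used here, and genes that overlap on either strand may share reads. The authors deposited log2 values per library, as log2(normalized count + 1), in 2 tables of genes selected for a difference of at least 1.00. Back on the linear scale, 100% of values up to 500 reads were whole multiples of a single step in each library (tolerance 0.02 reads), whose inverse gave the relative depth. IMQ values of the 2 tables differed by at most 4.98e-09. Sums over listed genes were not used as depth.

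Groups came from sample titles, and the labels do not say that samples came from separate animals, so p-values measure a spread that may be technical. Each table was fitted whole with limma 3.58.1 (R 4.3.3) with a mean-variance trend, a minimum mean normalized count of 1 and Benjamini-Hochberg adjustment over all genes of the fit, with a threshold of 0.05. Lidocaine against WT used 1 fit of 3 groups on the 560 shared genes. The fit was tested on simulated data. Fold changes are on the log2(value + 1) scale and understate changes of low genes. Where a group was at 0 throughout, the fold is a bound from a floor of 3 reads per library, which covers counting error only.

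The members and the gene lists were chosen with earlier results of these data known. Named genes are all members, all listed immunoglobulin genes, up to 4 of each list with the largest absolute differences, and the 3 nearest patterns per member. Il21r and Cd40lg in IMQ against WT and Spib and Cd22 in lidocaine against IMQ were named beyond this rule, after their values were seen. Some genes that the rule names are not reported here. Alternatives were pseudocounts of 0.1 and 10, no filter, a minimum of 50, an adjusted p of 0.01, no trend, the replicate number as a block, limma-voom on recovered reads and each library left out in turn. Promoters of Igh-6, Mzb1, Pou2af1 and Cd79b were not used here.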

Additional observations from a re-analysis of the deposited data

How the results depend on the processing

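The 17 member differences were recomputed under every alternative that changes the fit, giving 230 values, of which 219 kept their side of the threshold. The Jchain difference between lidocaine and WT, not called at 0.60, turned to −0.13 without lidocaine replicate 1. No called difference changed sign, 10 values lost and 1 gained a call, and those are given beside the results or here. An adjusted p under 0.01 left 4 of 6 called members for IMQ against WT, 5 of 6 for lidocaine against IMQ and 3 of 4 for lidocaine against WT. Of the 3965 genes called for IMQ against WT, an adjusted p under 0.01 left 1895, and leaving out single libraries gave 2450 (without IMQ replicate 3) to 3956, with 2493 without WT replicate 2. Of the 733 for lidocaine against IMQ, a minimum mean of 50 left 453 and an adjusted p under 0.01 left 354, and leaving out single libraries gave 383 (without lidocaine replicate 1) to 694. For lidocaine against WT the range was 172 to 253 around 238. Fewer genes pass the minimum by construction. For the other settings the cause was not tested. Left-out libraries gave 4 to 6 called members for IMQ against WT, 5 to 6 for lidocaine against IMQ and 4 in each fit for lidocaine against WT.

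The replicate numbers did not pair the samples, since deviations of same-numbered libraries from their group means correlated at −0.159, −0.058 and −0.118 for IMQ and WT and at 0.016 and 0.044 for lidocaine and IMQ. With the replicate number as a block, 3818, 600 and 205 genes and 5, 6 and 4 members were called in the 3 comparisons, and Cd79a for IMQ against WT missed the threshold (adjusted p = 0.0563). Limma-voom on recovered reads called 3975, 726 and 228 genes and 6, 6 and 4 members. Where 1 lidocaine library is left out, the lone one is assumed to vary like the others. Lidocaine values of Mzb1 and Cd79b rest on 3 to 15 reads per library, which limits their precision.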
